A study of Mus musculus with 16 samples.

Results

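The comparison described here asked whether wasting muscle responded alike in a first pair of mouse cachexia models, C26 and LLC, and in a second pair, KPP and KPC. It used all 16 libraries of the series, 8 from C26 and LLC mice and 8 from KPP and KPC mice. For each gene the effect in a model was the log2 level in cachectic muscle minus that in the model's own controls. The difference was the mean of the C26 and LLC effects minus the mean of the KPP and KPC effects, so that a positive difference means a higher change in C26 and LLC.

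Each model had 2 cachectic and 2 control libraries. C26 mice were labelled CD2F1, LLC mice C57BL/6J, KPP mice C57BL/6J and KPC mice mixed, and in each model the controls carried the same strain label as the cachectic mice. The labels do not spell out the model names. C26 is known as a colon carcinoma line and LLC as the Lewis lung carcinoma line, both grown as transplants. KPC and KPP are known as names of mice engineered to develop pancreatic cancer, and the alleles are not given in the labels. Tumour type and mode of tumour growth change together between the pairs and cannot be told apart. Strain labels also differ between models, with LLC and KPP alone sharing one, and strain cannot be fully set apart from the pair. All libraries were made from total RNA of snap-frozen tibialis anterior, a shin muscle made mostly of fast fibres, after depletion of ribosomal RNA.

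Cancer cachexia is a loss of muscle and fat in the presence of a tumour. Muscle proteins are marked by ubiquitin ligases and broken down by the proteasome, and organelles are removed by autophagy. Many muscle genes also follow the circadian clock, in which the Clock and Arntl proteins bind E-box motifs and switch on their own inhibitors and output factors such as Dbp. These processes set the order of the account below.

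The libraries held 28584279 to 46972882 reads over 12021 listed genes. The muscle identity genes were abundant, with means over the libraries of 17.42 log2 CPM for Ttn, 15.78 for Myh4, 13.55 for Acta1, 13.50 for Ckm and 11.85 for Myl1. Here CPM stands for the deposited values, taken as counts per 1000000 reads of the listed genes. The 2 LLC cachectic libraries and the 2 KPC cachectic libraries stood apart from each other. The log2 differences between replicates had an SD over genes of 0.561 and 0.534 in these groups, and of 0.239 to 0.359 in the other 6 groups. On the first principal component KPC cachectic 2 scored -23.0, beside -25.5 and -27.3 in the KPC controls, while KPC cachectic 1 scored 11.3. LLC cachectic 1 scored 20.3 and LLC cachectic 2 scored -5.47, against -29.4 and -26.6 in LLC controls. Results that rest on these libraries are given with and without them. A fit without 1 of them leaves a single library in its group, which then adds nothing to the spread used in the tests. Genes can pass in such a fit because that spread is smaller or because the effect in that group moves. Leaving out both LLC cachectic 1 and KPC cachectic 2 drops the LLC library farther from its controls and the KPC library nearer to its controls. That choice by itself draws the pairs together, and the opposite choice was not run. In bulk muscle, fewer cells of a type and less RNA per cell cannot be told apart.

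The difference between the pairs passed the test in 2 genes. Dbp, a clock output transcription factor that binds D-box motifs, fell in C26 and LLC muscle and had values near those of controls in KPP and KPC muscle. Acad12, a member of the acyl-CoA dehydrogenase family of fatty acid oxidation enzymes, rose in the mean of C26 and LLC. These were 0.0166% of the genes tested, 1 higher and 1 lower (limma, two-sided, Benjamini-Hochberg adjusted p under 0.05 over all genes). At an unadjusted p under 0.05 the difference passed in 2186 genes, 18.2% of those tested, 1840 higher and 346 lower. List counts at an unadjusted p under 0.05 are to be read against these. The median standard error of a difference was 0.192. The median 95% interval, not adjusted for the number of genes, reached 0.417 to either side. Much larger differences also failed the adjusted limma test with 2 libraries a group, such as -3.90 for Csrp3 (adjusted p = 0.0971). A gene that did not pass may therefore still differ.

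The bases just before the annotated gene start are shown for the 2 genes that passed, and for comparison those of Ciart, a clock-controlled repressor and 1 of the clock genes whose window held the E-box. The stretches are 91 bases for Dbp, 250 for Acad12 and 227 for Ciart. They are from RefSeq on GRCm38.p6, written from 5′ to 3′ on the gene's own strand, and capitals mark the E-box letters CACGTG.
Dbp, chr7:45704997-45705087, plus strand: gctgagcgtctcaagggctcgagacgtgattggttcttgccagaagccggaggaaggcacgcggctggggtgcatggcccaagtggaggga
Acad12, chr5:121618939-121619188, minus strand: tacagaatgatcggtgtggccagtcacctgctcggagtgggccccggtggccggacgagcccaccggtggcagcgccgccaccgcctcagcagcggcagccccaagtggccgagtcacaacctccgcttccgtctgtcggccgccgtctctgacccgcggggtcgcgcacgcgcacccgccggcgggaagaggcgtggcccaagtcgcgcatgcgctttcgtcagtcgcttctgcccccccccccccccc
Ciart, chr3:95882252-95882478, minus strand: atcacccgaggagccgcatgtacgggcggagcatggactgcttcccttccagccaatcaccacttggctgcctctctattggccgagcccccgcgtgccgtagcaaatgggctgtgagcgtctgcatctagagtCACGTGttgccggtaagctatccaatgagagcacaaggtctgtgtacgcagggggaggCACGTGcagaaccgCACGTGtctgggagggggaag
In the RefSeq window of 250 bases upstream, Ciart held 3 E-boxes and Dbp and Acad12 held 0. In the same window, 6.02% of 32851 RefSeq promoters held an E-box, which reads the same on both strands. Among the 16 clock genes with a RefSeq promoter, 5 held an E-box in at least 1 promoter, namely Bhlhe41, Ciart, Cry1, Per1 and Tef. Clock genes were counted per gene and the shares over RefSeq per promoter, so they are not on the same scale. The D-box letters TTATGTAA, searched on both strands, were in 0.819% of the promoters and in 1 clock gene, Per3. These letters say nothing of sites elsewhere in the genes.

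Dbp (chromosome 7, 45705088 to 45710203, plus strand, GRCm38) had 2.94 and 2.74 log2 CPM in cachectic C26 muscle, against 6.20 and 6.14 in C26 controls. In LLC it had 3.94 and 4.39 in cachectic muscle, against 5.96 and 5.98 in controls. All 4 of these cachectic libraries lay below every other library of the series. In KPP it had 5.52 and 6.60 in cachectic muscle, against 5.91 and 6.42 in controls, and in KPC 5.31 and 5.76 in cachectic muscle, against 5.69 and 5.79 in controls. Cachectic and control values overlapped in KPP and KPC.

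The Dbp effect was -3.33 in C26, -1.81 in LLC, -0.10 in KPP and -0.20 in KPC. The mean effect was -2.57 in C26 and LLC (adjusted p = 0.000256) and -0.15 in KPP and KPC (adjusted p = 0.679). The difference was -2.41 ± 0.29 (SE, 2 libraries per group, 95% interval -3.05 to -1.78, limma adjusted p = 0.0131). Between LLC and KPP, which carry the same strain label, 4 genes passed (0.0333%), and the Dbp difference was -1.70 (adjusted p = 0.219). The 3′ end of Dbp overlaps Sphk2 on the other strand, and the handling of strand in the counting is not given. The Sphk2 difference was 0.49 ± 0.18 (adjusted p = 0.208), and the share of Dbp reads from the overlap was not tested.

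Acad12 (chromosome 5, 121596775 to 121618938, minus strand) had 5.16 and 5.35 log2 CPM in cachectic C26 muscle, against 4.05 and 4.05 in C26 controls. In LLC it had 4.45 and 4.32 in cachectic muscle, against 4.02 and 3.93 in controls. Cachectic libraries lay above controls in both models. In KPP it had 3.98 and 3.78 in cachectic muscle, against 4.33 and 4.38 in controls, and in KPC 4.18 and 4.24 in cachectic muscle, against 4.07 and 4.23 in controls. KPP cachectic libraries lay below their controls, and the KPC groups overlapped.

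The Acad12 effect was 1.21 in C26, 0.41 in LLC, -0.48 in KPP and 0.06 in KPC. Its mean effect was 0.81 in C26 and LLC (adjusted p = 0.000669) and -0.21 in KPP and KPC (adjusted p = 0.17). The difference was 1.02 ± 0.12 (SE, 95% interval 0.75 to 1.29, limma adjusted p = 0.0131). Between LLC and KPP it was 0.89 (adjusted p = 0.119).

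Both genes kept their sign and stayed between -2.68 and -2.14 for Dbp, and between 0.97 and 1.07 for Acad12, when each of the 16 libraries was left out in turn. In 8 of these 16 fits neither passed, with adjusted p from 0.0538 to 0.0913, and 1525 to 1961 genes were at an unadjusted p under 0.05. These were the fits without C26 control 1 or 2, C26 cachectic 2, LLC control 1 or 2, KPP control 1, or KPC control 1 or 2. With C26 left out of its pair, the adjusted p was 0.187 for Dbp and 0.24 for Acad12, and with KPP left out it was 0.241 for Dbp and 0.246 for Acad12.

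**Figure D1:**
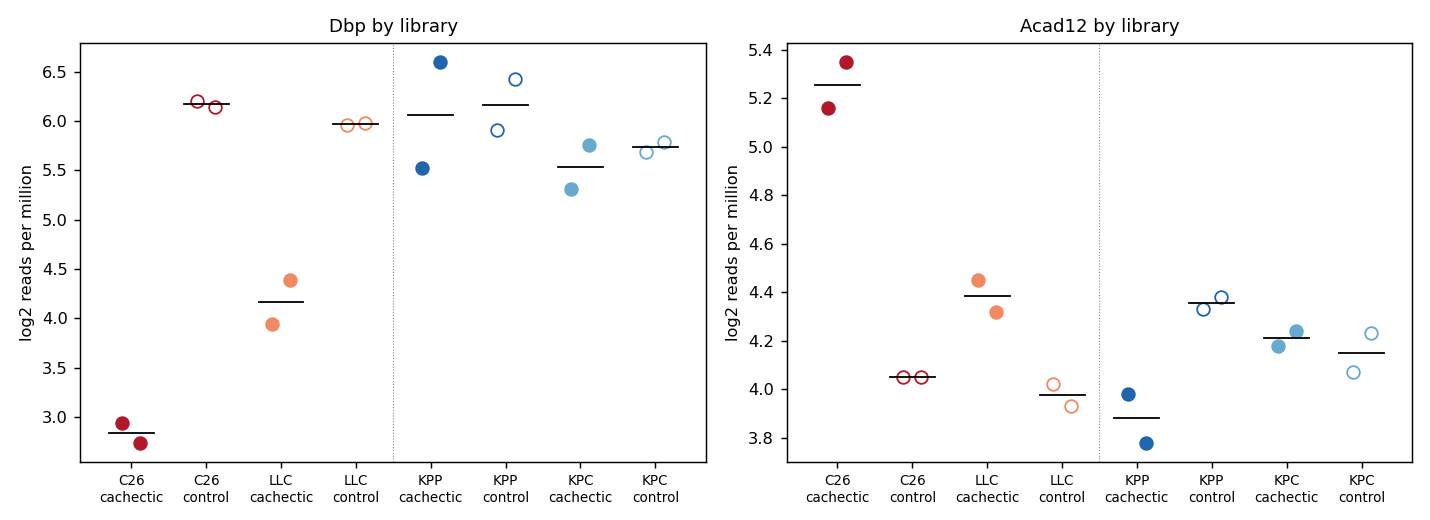
Level of Dbp (left) and Acad12 (right) in each of the 16 libraries, in log2 CPM; filled points are cachectic and open points control libraries, and bars are group means. Dbp lay at 2.74 to 4.39 in the C26 and LLC cachectic libraries and at 5.31 or above in all others, while Acad12 was highest in the C26 cachectic libraries at 5.16 and 5.35.

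Dbp was the sole member of the clock list to pass, of 18 measured. A further 4 members were higher and 5 lower at an unadjusted p under 0.05, against 1840 higher and 346 lower of 12021 genes. Clock gene effects in C26 and LLC were not always of the same sign. Arntl, the partner of Clock in the activating complex, had 5.62 and 4.99 log2 CPM in cachectic C26 muscle, against 2.27 and 2.23 in C26 controls. In LLC it had 5.01 and 4.06 in cachectic muscle, against 4.40 and 4.51 in controls. The C26 controls were the lowest Arntl libraries of the series, and the LLC groups overlapped.

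The Arntl effect was 3.05 in C26, 0.08 in LLC, -0.46 in KPP and -0.09 in KPC, with a difference between the pairs of 1.84 ± 0.31 (adjusted p = 0.0786). The C26 effect exceeded the LLC effect by 2.97 (adjusted p = 0.0245), a comparison that 14 genes passed (0.116%). Cry1, an inhibitor of the Clock and Arntl complex, had effects of 0.69 in C26, 0.56 in LLC, -0.14 in KPP and -0.25 in KPC (difference 0.82 ± 0.17, adjusted p = 0.105). Both passed without LLC cachectic 2 (adjusted p = 0.00166 for each) and without KPC cachectic 1 (adjusted p = 0.0345 for Arntl and 0.0374 for Cry1). Without both LLC cachectic 1 and KPC cachectic 2, Arntl passed (1.80, adjusted p = 0.0193) and Cry1 did not (0.63, adjusted p = 0.0551). Ciart, whose promoter is shown above, had effects of -1.94, 0.14, 1.40 and 0.27 in C26, LLC, KPP and KPC (difference -1.74 ± 0.45, adjusted p = 0.157). The time of day at which muscles were taken is not given in the labels, and its part in these differences was not tested.

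**Figure D2:**
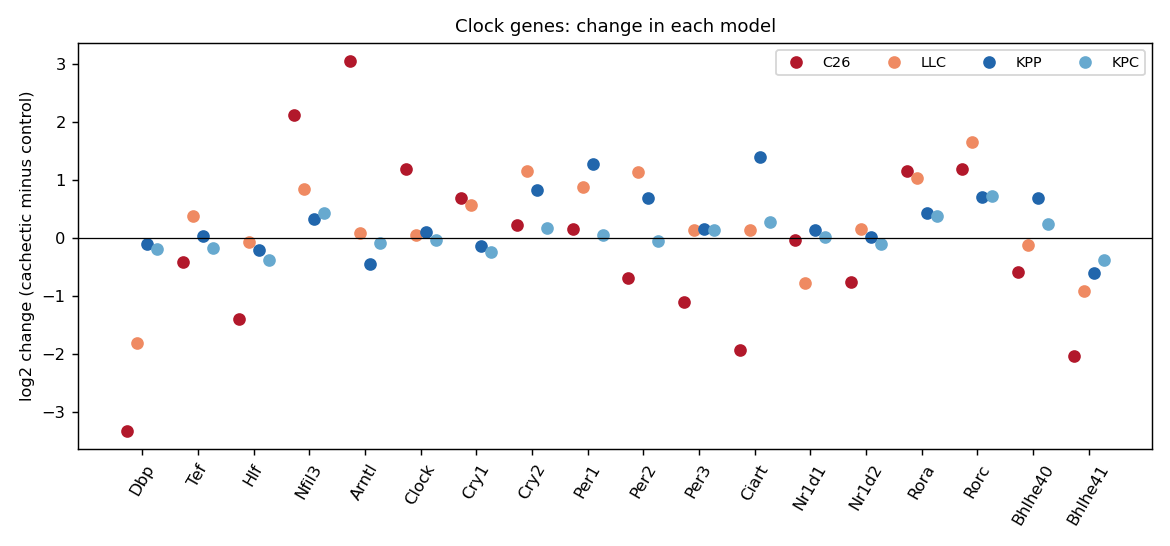
Log2 change (cachectic minus control) of the 18 measured clock genes in C26, LLC, KPP and KPC, 1 point per model from 2 libraries a group. Dbp is low in C26 and LLC at -3.33 and -1.81, while the Arntl change is 3.05 in C26 and 0.08 in LLC.

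The pairs were also set side by side gene by gene. In the mean of C26 and LLC 4923 genes (41% of those tested) passed, 3646 higher (30.3%) and 1277 lower (10.6%). In the mean of KPP and KPC 483 genes (4.02%) passed, 170 higher (1.41%) and 313 lower (2.6%). Of the genes called in either, 346 were called in both with the same sign, which is 7.03% of the C26 and LLC calls and 71.6% of the KPP and KPC calls. A further 4575 were called in C26 and LLC alone. Of these, 3882 had the same sign in KPP and KPC, and 2 passed the test of the difference itself, so a call in 1 pair and not in the other was rarely a tested difference.

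Across genes, which are not independent replicates, the 2 mean changes had a Pearson r of 0.714 and a Spearman rho of 0.654 over 12021 genes, with no library in common. The SD of the changes over genes was 0.52 in C26 and LLC and 0.354 in KPP and KPC. The gap in calls depended on which LLC and KPC cachectic libraries were in the fit. The median standard error of a difference was 0.192 with all libraries and 0.187 without KPC cachectic 2. It was 0.16 without both that library and LLC cachectic 1. Leaving out KPC cachectic 1 gave 0.187 as well, and leaving out LLC cachectic 1 or LLC cachectic 2 gave 0.179 each. A smaller spread can add calls, but the median standard error was the same whichever library of such a group was left out. The median difference over all genes was 0.13 without LLC cachectic 1 and 0.19 without LLC cachectic 2. Counts from these fits are not comparable with those from all libraries. Without both LLC cachectic 1 and KPC cachectic 2 the difference was -2.19 for Dbp and 1.00 for Acad12. Scaling each library to a common median gave 1878 higher and 1946 lower calls in C26 and LLC, and 167 higher and 147 lower in KPP and KPC.

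**Figure D3:**
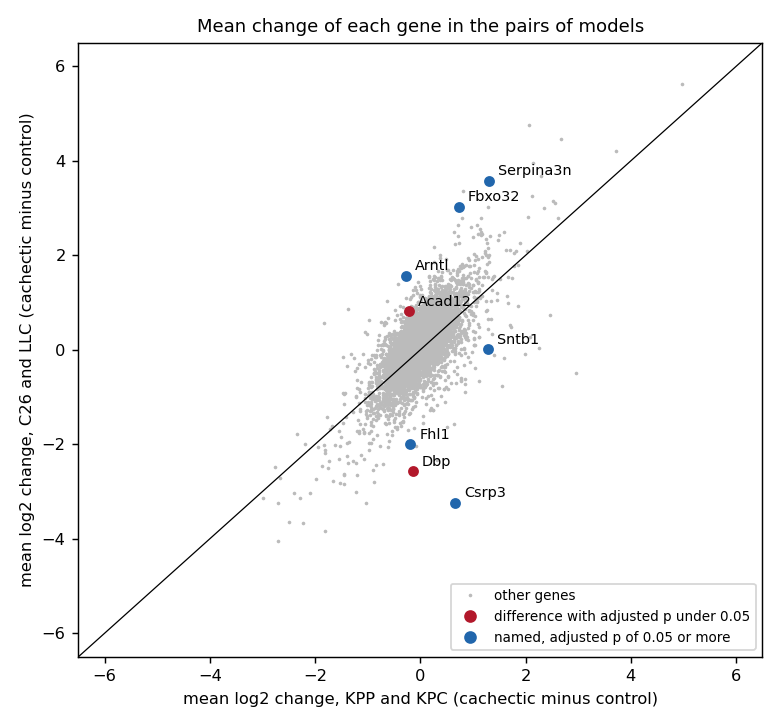
Mean log2 change (cachectic minus control) of each of 12021 genes in C26 and LLC (vertical) against KPP and KPC (horizontal), with the line of equal change. Red points are the 2 genes whose difference passed, Dbp and Acad12, and blue points are named genes with an adjusted p of 0.05 or more, such as Fhl1 at -2.00 against -0.19.

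The next genes in the order of p did not pass and were chosen for description after their values were seen. Fhl1, a LIM domain protein of the sarcomere, had 8.83 and 8.54 log2 CPM in cachectic C26 muscle, against 9.94 and 10.12 in controls. In LLC it had 7.45 and 7.19 in cachectic muscle, against 9.71 and 10.24 in controls. Cachectic libraries lay below controls in both models. Its effects in KPP and KPC were 0.03 and -0.41, and the difference was -1.81 ± 0.27 (adjusted p = 0.0681). Fhl1 passed after scaling to a common median (-1.97, adjusted p = 0.0286) and without both LLC cachectic 1 and KPC cachectic 2 (-1.74, adjusted p = 0.032). Between LLC and KPP the Fhl1 difference was -2.69 (adjusted p = 0.0319).

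Csrp3, a LIM protein of the Z-disc that is abundant in slow fibres and heart, had 3.01 and 3.98 log2 CPM in cachectic C26 muscle, against 5.51 and 5.94 in controls. In LLC it had 2.12 and 1.62 in cachectic muscle, against 4.95 and 7.30 in controls. The KPP values were 5.97 and 6.75 in cachectic muscle, against 4.47 and 6.89 in controls. Csrp3 was lower in every C26 and LLC cachectic library than in any control library of its model, while the KPP groups overlapped. Its effect in KPC was 0.64, with 4.38 and 4.76 in cachectic muscle, against 3.89 and 3.96 in controls. The difference was -3.90 ± 0.74 (95% interval -5.52 to -2.29, adjusted p = 0.0971). It passed without KPP control 2, KPC cachectic 1 or LLC cachectic 2 (adjusted p = 0.046, 0.0374 and 0.0101).

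The slow fibre list, made of contractile and Z-disc genes of slow muscle, had 11 measured members. Its median difference was -0.98, against 0.17 over all genes. The median effect was -0.05 in C26, -0.18 in LLC, 0.73 in KPP and 0.64 in KPC. The C26 and LLC effects both lay below the KPP and KPC effects in 7 of 11 members, against 8.87% of all genes, and 0 passed the difference, with 7 lower at an unadjusted p under 0.05. In KPP and KPC 2 of 11 members rose, against 1.41% of all genes. They were Tnnt1, the slow skeletal troponin T, and Myh7b, a slow-type myosin heavy chain. In C26 and LLC Csrp3, Ankrd2 and Myl3 fell, against 10.6% of all genes. Myh7b alone rose there, against 30.3% of all genes. Without both LLC cachectic 1 and KPC cachectic 2, the list's median effect was -0.17 in LLC and 0.78 in KPC.

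Tnnt1 had 5.08 and 3.13 log2 CPM in cachectic KPP muscle, against 2.06 and 2.04 in controls. In C26 it had 1.71 and 1.55 in cachectic muscle, against 1.60 and 1.76 in controls. Myh7, the slow myosin heavy chain, had 8.13 and 4.77 in cachectic KPP muscle, against 3.47 and 2.48 in controls, and its difference was -2.22 ± 0.90 (adjusted p = 0.237). Both genes were higher in KPP cachectic libraries than in KPP controls, and KPP cachectic 1 was the highest library for each. Without it the Myh7 difference was -1.38 and the Tnnt1 difference -1.02. The list's median difference was -0.67 without C26 cachectic 2 and -1.51 without C26 cachectic 1, and -0.89 without both LLC cachectic 1 and KPC cachectic 2. Myh4, the fast myosin heavy chain of this muscle, had a difference of 0.01 ± 0.19 (95% interval -0.41 to 0.44).

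Proteasome genes had differences of the other sign. All 32 proteasome subunit genes were measured and all had a positive difference, of 0.38 to 0.89. Their median effect was 0.60 in C26, 0.73 in LLC, -0.09 in KPP and 0.17 in KPC. The C26 and LLC effects both lay above the KPP and KPC effects in 30 of 32, against 37.7% of all genes. In C26 and LLC 16 rose, against 30.3% of all genes, and in KPP and KPC 0 changed, against 4.02% of all genes. The difference passed in 0 of 32, with 1 at an unadjusted p under 0.05, Psmd6, a subunit of the regulatory lid (0.89 ± 0.30, adjusted p = 0.189).

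The proteasome result rested on 1 library. The summed level of the list was 11.72 and 11.76 log2 CPM in cachectic C26 muscle, against 11.17 and 11.12 in controls. In LLC it was 12.65 and 11.15 in cachectic muscle, against 11.22 and 11.14 in controls. LLC cachectic 1 was the highest library of the series and LLC cachectic 2 lay between its controls. In KPP the sum was 11.25 and 11.16 in cachectic muscle, against 11.20 and 11.36 in controls, and in KPC 11.71 and 11.17, against 11.31 and 11.25.

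Of 32 proteasome members, 4 lay above in both models without LLC cachectic 1 (12.5%, against 26% of all genes). The median proteasome difference in that fit was 0.22, against 0.13 over all genes. Without LLC cachectic 2 it was 1.02 and 31 of 32 passed, among 2164 genes in all, with the remaining LLC cachectic library assumed to vary as the other groups do. Without both LLC cachectic 1 and KPC cachectic 2 it was 0.09, and the list's median effect was -0.04 in LLC and 0.41 in KPC. Dbp and Acad12 were among the calls in each of these 3 fits.

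**Figure D4:**
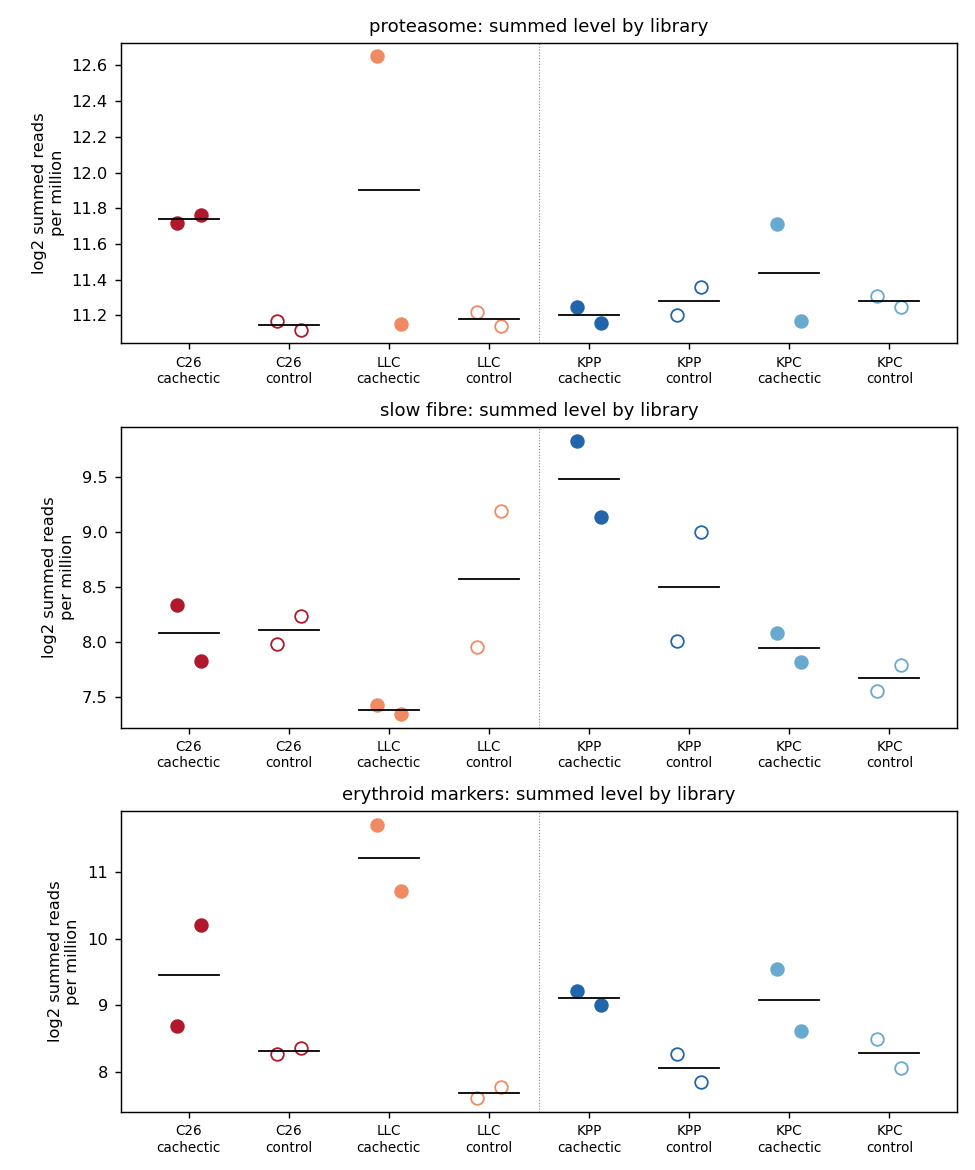
Summed level of the proteasome (top), slow fibre (middle) and erythroid marker (bottom) genes in each of the 16 libraries, in log2 of the summed CPM; filled points are cachectic and open points control libraries, and bars are group means. LLC cachectic 1 is the highest proteasome library at 12.65, KPP cachectic 1 the highest slow fibre library at 9.83, and both LLC cachectic libraries are the highest for erythroid genes at 11.71 and 10.72.

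Of 19 ubiquitin ligases of atrophy, 8 rose in C26 and LLC and 0 in KPP and KPC, where Fbxo40, a muscle ligase, fell. Over all genes 30.3% rose in C26 and LLC and 1.41% in KPP and KPC. The count of 0 in KPP and KPC did not hold without KPC cachectic 2. The list's median difference was 0.30, against 0.17 over all genes. It was 0.20 without KPC cachectic 2, against 0.13 over all genes. Without both that library and LLC cachectic 1 it was 0.19, against 0.10 over all genes. After quantile normalization it was 0.09, against 0.01 over all genes. At an unadjusted p under 0.05, 6 ligases were higher, against 1840 of 12021 genes. Fbxo32 (atrogin-1), a ligase that targets muscle proteins for breakdown, had 10.62 and 11.04 log2 CPM in cachectic C26 muscle, against 7.69 and 7.35 in controls. In LLC it had 11.89 and 10.03 in cachectic muscle, against 8.49 and 7.93 in controls. The KPP values were 8.91 and 8.27 in cachectic muscle, against 8.36 and 8.73 in controls, and the KPC values 10.64 and 8.96, against 8.21 and 8.56. KPP was the model in which cachectic and control values of Fbxo32 overlapped.

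The Fbxo32 effect was 3.31 in C26, 2.75 in LLC, 0.04 in KPP and 1.42 in KPC, and the difference was 2.30 ± 0.56 (95% interval 1.08 to 3.51, adjusted p = 0.148). It passed without LLC cachectic 2 (2.76, adjusted p = 0.0036) and without KPC cachectic 1 (2.72, adjusted p = 0.0345), and was 1.84 without LLC cachectic 1 and 1.41 (adjusted p = 0.0576) without both LLC cachectic 1 and KPC cachectic 2. Trim63 (MuRF1), the ligase of myosin and other sarcomere proteins, had effects of 2.23, 1.65, 1.06 and 0.73 in C26, LLC, KPP and KPC, and a difference of 1.04 ± 0.58 (adjusted p = 0.334). The Trim63 difference was 0.56 without LLC cachectic 1, 0.25 without both that library and KPC cachectic 2, and passed without LLC cachectic 2 (1.52, adjusted p = 0.0443). Foxo3, a transcription factor that induces both ligases, had a difference of 0.41 ± 0.21 (adjusted p = 0.3) and Foxo1 one of 0.44 ± 0.39 (adjusted p = 0.519).

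Autophagy and lysosome genes had a median difference of 0.36, against 0.17 over all genes. Of 29 measured, 16 rose in C26 and LLC (30.3% of all genes) and 0 in KPP and KPC (1.41% of all genes), where 1 fell. Without both LLC cachectic 1 and KPC cachectic 2, the median difference was 0.21, against 0.10 over all genes. In that fit 7 members lay above in both models (24.1%, against 20.9% of all genes), and some members rose in KPP and KPC. With all libraries 22 lay above (75.9%, against 37.7% of all genes). With all libraries 13 had a higher difference at an unadjusted p under 0.05, against 1840 of 12021 genes. Map1lc3a, which coats the growing autophagosome, had effects of 0.73, 0.79, 0.36 and -0.27 in C26, LLC, KPP and KPC (difference 0.72 ± 0.15, adjusted p = 0.105). Ctsl, a lysosomal protease, had effects of 1.45, 1.92, 0.35 and 0.65 (difference 1.18 ± 0.47, adjusted p = 0.232). No member passed the test of the difference.

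Of 19 acute phase and STAT3 genes measured, 19 rose in C26 and LLC (30.3% of all genes) and 8 rose in KPP and KPC (1.41% of all genes). The count of 8 in KPP and KPC was higher without KPC cachectic 2. The median effect of the list was 1.96 in C26, 1.09 in LLC, 1.03 in KPP and 0.76 in KPC. The C26 and LLC effects both lay above the KPP and KPC effects in 6 of 19 (31.6%, against 37.7% of all genes). The median difference was 0.53, or 0.17 without KPC cachectic 2 and 1.02 without KPC cachectic 1. It was 0.17 without both LLC cachectic 1 and KPC cachectic 2. Serpina3n, a secreted protease inhibitor of the acute phase, had 7.28 and 6.51 log2 CPM in cachectic C26 muscle, against 1.27 and 1.89 in controls. Its effects were 5.31 in C26, 1.85 in LLC, 1.73 in KPP and 0.90 in KPC (difference 2.27 ± 0.47, adjusted p = 0.106). The difference passed without LLC cachectic 2 (2.47, adjusted p = 0.00722) and without KPC cachectic 1 (2.55, adjusted p = 0.0345). The C26 effect was the largest of the 4, and the difference between LLC and KPP was 0.12 (adjusted p = 0.956).

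Lcn2, an iron-binding acute phase protein, rose in both pairs, with effects of 5.75, 2.64, 4.87 and 2.55 in C26, LLC, KPP and KPC and a difference of 0.49 ± 0.89 (95% interval -1.45 to 2.43, adjusted p = 0.767). The sign rested on the KPC cachectic libraries, with -0.35 without KPC cachectic 2 and 1.34 without KPC cachectic 1. Socs3, an inhibitor of cytokine signalling, also rose in both, with a difference of -0.05 ± 0.55 (95% interval -1.25 to 1.15, adjusted p = 0.965), or -0.60 without KPC cachectic 2 and 0.50 without KPC cachectic 1. Mt2, a metal-binding metallothionein, rose in both as well, with effects of 6.93, 1.98, 3.57 and 1.79 and a difference of 1.77 ± 0.89 (adjusted p = 0.298), or 1.08 without KPC cachectic 2. For Lcn2, Socs3 and Mt2 the larger contrast in effect was between models of a pair rather than between pairs, although no difference within a pair passed for them. Within KPP and KPC, 3 genes passed (0.025%), and the largest of these differences was in 1700001O22Rik at -4.67.

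Other genes fixed for description had differences that did not pass with all libraries. They were 1.09 ± 0.46 for Cdkn1a, a cell cycle inhibitor, 0.82 ± 0.83 for Pdk4, which restrains glucose oxidation, and -0.92 ± 0.38 for Ppargc1a, a regulator of mitochondrial genes. They were 1.38 ± 0.96 for Mt1, 0.38 ± 0.78 for Cebpd, a stress-induced transcription factor, and 0.05 ± 0.26 for Mstn, the growth inhibitor myostatin. Adjusted p for these 6 ranged from 0.242 for Ppargc1a to 0.921 for Mstn. Ppargc1a passed without KPP cachectic 2 (-1.35, adjusted p = 0.0312) and was -0.49 without KPP cachectic 1, and Cdkn1a passed without LLC cachectic 2 (1.40, adjusted p = 0.0423). Leaving out 1 LLC cachectic library gave 0.58 to 2.17 for Mt1 and -0.21 to 0.32 for Mstn, the Pdk4 difference was 0.13 without LLC cachectic 2, and leaving out 1 KPC cachectic library gave -0.30 to 1.05 for Cebpd.

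Among metabolic lists, 13 of 27 fatty acid oxidation genes lay above in both C26 and LLC (48.1%, against 37.7% of all genes). At an unadjusted p under 0.05, 14 were higher, against 1840 of 12021 genes. Their median effect was 0.01 in C26, 0.03 in LLC, -0.46 in KPP and -0.07 in KPC. Their median difference was 0.39, or 0.25 without C26 cachectic 2, against 0.17 over all genes in each fit. Cd36, the fatty acid transporter, rose in C26 and LLC (mean effect 0.96, adjusted p = 0.000871) and had a mean effect of 0.18 in KPP and KPC (difference 0.78 ± 0.18, adjusted p = 0.14). It passed without LLC cachectic 2 (0.89, adjusted p = 0.00479) and without KPC cachectic 1 (0.83, adjusted p = 0.0437). Acads, a short-chain acyl-CoA dehydrogenase, fell in KPP and KPC (-0.83, adjusted p = 0.0312) and had -0.32 in C26 and LLC (difference 0.51 ± 0.21, adjusted p = 0.244).

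Nuclear genes of oxidative phosphorylation had medians of -0.55 in C26, -0.42 in LLC, -0.50 in KPP and -0.41 in KPC. The KPC median came from unlike libraries, and was -0.06 without KPC cachectic 1 and -0.75 without KPC cachectic 2. Of 49, 43 fell in C26 and LLC (10.6% of all genes) and 12 in KPP and KPC (2.6% of all genes), and the median difference was -0.05. The count of 12 in KPP and KPC was higher without KPC cachectic 2. The median difference was 0.11 without KPC cachectic 2 and -0.19 without KPC cachectic 1. It was 0.19 without both LLC cachectic 1 and KPC cachectic 2. Cytosolic ribosomal proteins, whose reads may be shared with processed pseudogenes, had a median difference of 0.42, against 0.17 over all genes. It was 0.27 without LLC cachectic 1, against 0.13 over all genes. Of 46 measured, 46 rose in C26 and LLC (30.3% of all genes) and 3 in KPP and KPC (1.41% of all genes). At an unadjusted p under 0.05, 24 were higher, against 1840 of 12021 genes. The count of 3 in KPP and KPC was higher without KPC cachectic 2. The median difference was 0.30 without KPC cachectic 2, against 0.13 over all genes. It was 0.16 without both that library and LLC cachectic 1, against 0.10 over all genes.

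Col1a1 and Col3a1, the main fibrillar collagens of muscle, fell in both pairs, with differences of -1.15 ± 0.75 and 0.19 ± 0.61 (adjusted p = 0.395 and 0.876). Without KPC cachectic 1 the Col1a1 difference passed (-1.95, adjusted p = 0.0417) and that of Col3a1 was -0.38, while without KPC cachectic 2 they were -0.35 and 0.76.

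**Figure D5:**
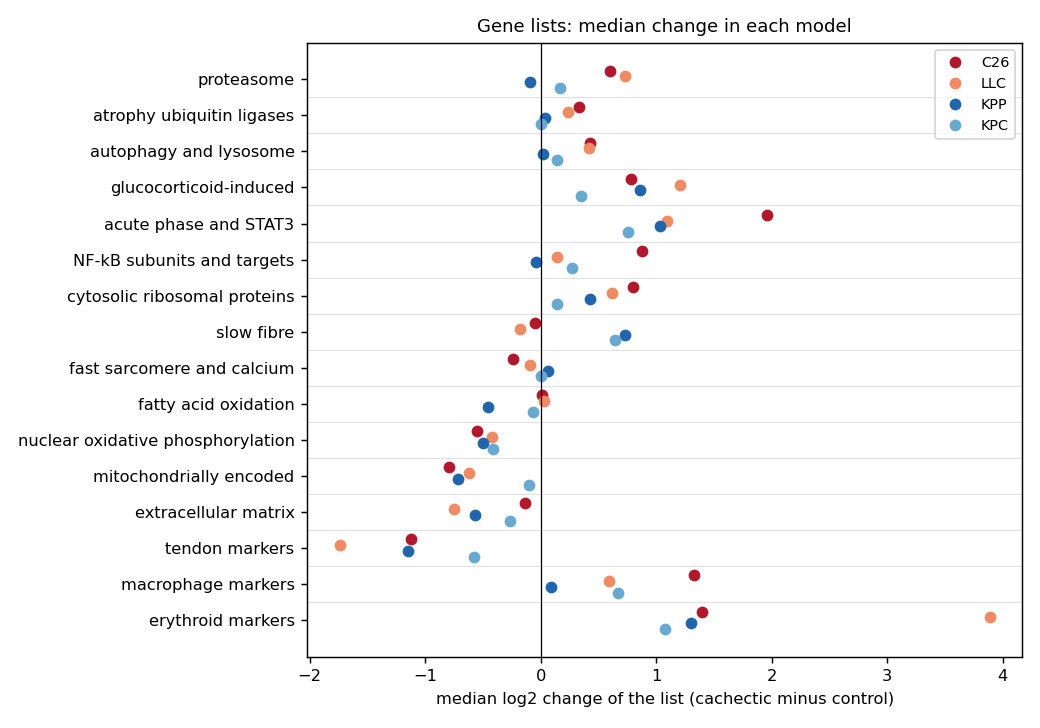
Median log2 change (cachectic minus control) of 16 gene lists in C26, LLC, KPP and KPC. Proteasome medians are 0.60 and 0.73 in C26 and LLC, against -0.09 and 0.17 in KPP and KPC, while the erythroid median of 3.89 in LLC is the highest of those shown.

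Markers of other cell types were counted in the same way. Of 8 erythroid genes measured, of 9 on the list, 7 rose in C26 and LLC and 0 in KPP and KPC, against 30.3% and 1.41% of all genes, and the median difference was 1.60. The count of 0 in KPP and KPC did not hold without KPC cachectic 2. Without that library the median difference was 1.32, and without both it and LLC cachectic 1 the median was 1.05. The summed erythroid level was 8.69 to 11.71 log2 CPM in the C26 and LLC cachectic libraries, against 7.61 to 8.36 in their controls. In KPP and KPC it was 8.62 to 9.54 in cachectic libraries, against 7.85 to 8.50 in controls. The near-identical globin copies may share reads. LLC had the largest median effect, 3.89, against 1.40 in C26, 1.30 in KPP and 1.08 in KPC.

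Of 12 macrophage genes measured, of 15 on the list, 10 rose in C26 and LLC (30.3% of all genes) and 0 in KPP and KPC (1.41% of all genes). Their median effect was 1.33 in C26, 0.59 in LLC, 0.09 in KPP and 0.67 in KPC, so KPC exceeded LLC. The C26 and LLC effects both lay above the KPP and KPC effects in 5 of 12 (41.7%, against 37.7% of all genes). The median difference was 0.61, against 0.17 over all genes, or 0.40 without KPP control 2. Without KPC cachectic 2 the median difference was 0.52. Without both that library and LLC cachectic 1 it was 0.68, and some macrophage genes rose in KPP and KPC. Their summed level was 6.56 to 8.16 in the C26 and LLC cachectic libraries, against 6.05 to 6.96 in controls, and 6.40 to 7.75 in the KPP and KPC cachectic libraries, against 6.04 to 7.26 in controls. Of 11 neutrophil genes 2 were measured, and both rose in each pair. Their median difference was 0.41, or 1.03 without KPC cachectic 1 and -0.21 without KPC cachectic 2. Adgre1, which encodes the macrophage marker F4/80, had a difference of 1.24 ± 0.33 (adjusted p = 0.159). The part of RNA from blood cells and macrophages in the differences was not tested.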

How the data were processed

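Total RNA of tibialis anterior, depleted of ribosomal RNA, was measured in 16 libraries of 8 groups, 2 per group. The submitters' processing notes name GRCm38, featureCounts 1.4.5 and limma; the aligner, annotation, strand handling and filter were not given in the sources used here. Log2 values are what the authors deposited. Each library was put on linear scale, set so that its lowest value was 0.5, and 0.5 was subtracted. This gave whole reads for 100% of values (tolerance 0.0001). Any factor applied to a whole library cancels in this step, so scaling beyond the total was not tested. The values are taken as log2 reads per 1000000 listed reads, and every change as relative to that total. Totals were 28584279 to 46972882 reads. Counting error was not set against the spread between replicates. The labels do not say that libraries are separate animals, so p-values measure the spread between these samples.

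Groups were taken from the sample titles. A single limma fit (3.58.1, R 4.3.3) gave each group a mean and shared a trended, moderated spread with 8 residual degrees of freedom. Tests were two-sided and adjusted by Benjamini-Hochberg over 12021 genes. Gene coordinates are from GENCODE on GRCm38. The members, lists and tests were chosen with earlier results of these data known. By rule, genes were named from calls with a mean of at least 1 in log2 units (the 12 largest differences each way, and called list members) together with 20 fixed genes; the rule gave Dbp and Acad12, and other genes named were chosen after their values were seen. Lists are described by counts and medians without a set test. Alternatives were scaling, low-value filters, variance models, voom weights on the recovered reads, a larger pseudocount, a replicate block, a looser threshold, and leaving out libraries or models; leaving mitochondrial genes and Ttn out of the total was added after the data were seen. The code was tested on simulated data. Some genes that passed or came near passing are not reported here.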

Additional observations from a re-analysis of the deposited data

Results flagged for a closer look

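The effects of the models differed by the test of the difference itself (limma, adjusted p under 0.05 over all genes) in the following genes. Between the pairs, C26 and LLC minus KPP and KPC, these were Dbp at -2.41 and Acad12 at 1.02.

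Between LLC and KPP, which share a strain label, 4 genes (0.0333% of those tested) passed, all lower in LLC. They were Mirg, a long noncoding RNA of the imprinted Dlk1 and Dio3 region, at -3.48 (adjusted p = 0.00842), Sntb1, a syntrophin that binds dystrophin, at -2.92 (adjusted p = 0.00377), Fhl1 at -2.69 (adjusted p = 0.0319) and Adamtsl5, a matrix protein, at -1.85 (adjusted p = 0.00842). Mirg had -0.43 and 0.15 log2 CPM in cachectic LLC muscle, against 1.23 and 1.38 in LLC controls, and 2.95 and 3.76 in cachectic KPP muscle, against 1.44 and 1.20 in KPP controls. The groups did not overlap in either model, and the effects were opposite in sign.

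Within the first pair, C26 minus LLC, 14 genes (0.116%) passed, all higher in C26. Among them were Prg4 at 3.56, a lubricating proteoglycan of joints and tendon, Arntl at 2.97, Igf2bp2 at 2.55, an RNA-binding protein, and Clu at 2.37, a secreted chaperone. Lama3 was at 1.97, Igf1 at 1.81, Smtnl1 at 1.76, Adamtsl5 at 1.73, Gm10605 at 1.69, Chid1 at 1.59, Emilin1 at 1.48, Gpr146 at 1.21 and Jade1 at 1.14. Igf1, a muscle growth factor, had 4.52 and 4.52 log2 CPM in cachectic C26 muscle, against 4.19 and 4.84 in C26 controls, and 2.98 and 3.40 in cachectic LLC muscle, against 4.91 and 5.07 in LLC controls. After scaling to a common library median, 0 of the 14 passed.

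Within the second pair, KPP minus KPC, 3 genes (0.025%) passed. Sntb1 was at 2.40 (adjusted p = 0.0316), with 4.12 and 4.31 log2 CPM in cachectic KPP muscle, against 1.65 and 1.80 in KPP controls, and 2.54 and 1.97 in cachectic KPC muscle, against 2.07 and 2.26 in KPC controls. Ccdc141 was at 1.74 and 1700001O22Rik at -4.67 (adjusted p = 0.0489 for each).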

How the results depend on the processing

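The signs of Dbp and Acad12 held in all 33 alternatives. The count of genes whose difference between the pairs passed was 6 (1 higher, 5 lower) after quantile normalization, 7 (1 higher, 6 lower) after centring on the library median, 4 with mitochondrial genes and Ttn out of the total, 25 at adjusted p under 0.10, 52 with LLC out of the contrast, 0 with KPP out (1308 at an unadjusted p under 0.05), 6 with KPC out, and 50 with LLC cachectic 1 and KPC cachectic 2 both out. Quantile normalization or centring took the median difference over all genes to 0.01, against 0.17 as deposited. In C26 and LLC the calls numbered 2768 at a mean log2 of at least 4 and 851 with C26 out. In KPP and KPC they were 300 after quantile normalization, 314 after centring, 239 at a mean of at least 4, 153 without the trend, 234 with vooma weights, 1399 at adjusted p under 0.10, 0 with KPP out, 214 with KPC out and 3995 with both libraries out. Genes called in both pairs with the same sign, under quantile normalization, a mean of at least 4, no trend, vooma, adjusted p under 0.10 and both libraries out, numbered 225, 183, 107, 165, 997 and 2658.

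C26 against LLC gave 0 genes after centring, 6 at a mean of at least 4, 27 with voom, 111 at adjusted p under 0.10 and 1478 with both libraries out. KPP against KPC gave 1 at a mean of at least 2, 0 at a mean of at least 4, 5 without the trend, 1 with vooma and 86 with both libraries out. LLC against KPP gave 2 at a mean of at least 4 and 37 with both libraries out. Genes with the C26 and LLC effects both above those of KPP and KPC numbered 4529 as deposited, 2567 after quantile normalization, 2585 after centring, 2392 at a mean of at least 4 and 2516 with both libraries out; those with both below numbered 1066, 2350, 2351 and 498 for the first 4 of these settings.

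With each library left out in turn, the ranges were 0 to 2164 genes for the difference between pairs, 2975 (without C26 control 1) to 6102 in C26 and LLC, 0 (without KPC control 1) to 2564 (without KPC cachectic 2) in KPP and KPC, 0 to 309 for C26 against LLC, 0 to 14 for KPP against KPC, 1 to 1265 for LLC against KPP, 0 to 1871 called in both pairs, 3123 to 5068 above and 757 to 1359 below. The difference passed in 2164 genes without LLC cachectic 2 and 270 without KPC cachectic 1. Each of these fits leaves a single library in 1 group, and that group then adds nothing to the shared spread. Their counts are therefore not comparable with those from all libraries. The median standard error was the same when the other library of the group was left out, 0.179 for LLC cachectic and 0.187 for KPC cachectic. The cause of these shifts was not tested.

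The replicate number does not pair samples: the correlation of same-numbered deviations was -0.0373 in C26, 0.0207 in LLC, 0.0894 in KPP and -0.00299 in KPC. With a replicate block, 4 residual degrees of freedom remained, and the difference between pairs passed in 1 gene, Dbp (adjusted p = 0.00425; Acad12 0.088), KPP and KPC in 0, calls in both pairs in 0, C26 against LLC in 0, KPP against KPC in 0 and LLC against KPP in 8.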

Other observations

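The genes below were picked after their values were seen, and none passed the test of the difference between the pairs with all libraries. Several are genes of the nerve-muscle contact or of denervated muscle. Ache, the synaptic acetylcholinesterase, had 2.96 and 2.61 log2 CPM in cachectic C26 muscle, against 4.45 and 4.59 in controls, and 2.82 and 4.53 in cachectic LLC muscle, against 4.50 and 4.52 in controls. Its mean effect fell in C26 and LLC (-1.28, adjusted p = 0.00439) and was 0.23 in KPP and KPC (difference -1.52 ± 0.37, adjusted p = 0.148). The Ache difference was -1.09 without LLC cachectic 1, -1.95 without LLC cachectic 2, and -1.11 without both LLC cachectic 1 and KPC cachectic 2. Myh3, the embryonic myosin heavy chain that regenerating fibres use, rose in KPP and KPC (1.37, adjusted p = 0.0216) and had 0.34 in C26 and LLC (difference -1.03 ± 0.29, adjusted p = 0.166). Runx1, a transcription factor induced by denervation, rose in C26 and LLC, with effects of 1.44 in C26, 0.98 in LLC, 0.09 in KPP and 0.58 in KPC (difference 0.88 ± 0.26, adjusted p = 0.174). Over the 20 measured genes of that list the median difference was 0.03, with 2 higher and 7 lower at an unadjusted p under 0.05.

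Among fast sarcomere and calcium genes 13 of 30 fell in C26 and LLC (10.6% of all genes) and 0 in KPP and KPC (2.6% of all genes). The count of 0 in KPP and KPC did not hold without KPC cachectic 2. The list's median difference was -0.15, or -0.13 without that library and -0.11 without both it and LLC cachectic 1. Tcap, which anchors titin at the Z-disc, had effects of -1.12 in C26, -0.25 in LLC, 0.33 in KPP and 0.06 in KPC (difference -0.89 ± 0.19, adjusted p = 0.121). Casq1, the calcium store protein of fast fibres, had -2.27, -1.32, -0.53 and -0.74 in C26, LLC, KPP and KPC (difference -1.16 ± 0.46, adjusted p = 0.23). Outside the fibres, Mmp14, a membrane-bound matrix protease, rose in C26 and LLC (0.92, adjusted p = 0.000835) and had 0.12 in KPP and KPC (difference 0.80 ± 0.15, adjusted p = 0.0971). The Mmp14 difference passed without KPC cachectic 1 (0.78, adjusted p = 0.0385), without LLC cachectic 2 (0.73, adjusted p = 0.00909) and without both LLC cachectic 1 and KPC cachectic 2 (0.88, adjusted p = 0.0489).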
